A study of Mus musculus with 31 samples.

Results

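Transcript levels of the injured neonatal mouse forebrain were compared with those of control forebrain 12 h after hypoxia-ischemia (HI), within the Cy3 channel of 6 of the 31 two-color arrays. The arrays were chosen by their titles: the 3 arrays named RV Mg 12h carry the injured pools in Cy3, and the 3 arrays named RV PBS 12h carry control pools in Cy3. The control pools came from naive NMRI mice, labelled PBS and called untreated in the methods. All mice were 5 days old. In the injured mice the right carotid was ligatured before hypoxia, and every sample was RNA pooled from 6 animals (3 males and 3 females), taken from a hemisphere without olfactory bulb that was cut in front of the colliculus. The sources differ on the injured pools. Their GEO labels name naive mice given MgSO4 (600 mg/kg) and give no HI tag for this channel. The methods put HI mice without MgSO4 in it, and the flow figures put HI mice given MgSO4 in it. Both the methods and the flow figures make these pools HI, so they are called injured here, and whether they also received MgSO4 was not settled. The HI pools in Cy5 of the RV PBS 12h arrays are HI by title and source name, while their treatment label reads MgSO4, so whether these had MgSO4 was not settled either. The route of injection is subcutaneous by the labels and intraperitoneal by the methods.

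HI in the newborn rodent combines a carotid occlusion with a period of low oxygen and is a model of brain injury at birth. As background, immediate early genes respond to such a stimulus first, and microglia, astrocytes and vessels then release chemokines, small secreted proteins that draw leukocytes into tissue. Interferon-induced genes and genes of reactive astrocytes belong to the later hours of the response. Cells of the growing brain make their own cholesterol, through an enzyme chain that the transcription factor Srebf2 controls.

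Both groups shared the same slides, with replicate 1 of each on 1 slide and replicates 2 and 3 of each on another. No dye was swapped, so the comparison was made within Cy3, and Cy5 values below are named as such. In ratios of Cy5 to Cy3, dye and sample cannot be told apart. Between 59.86% and 64.43% of spots were well above background in Cy3, and 0 were saturated. Levels are given as the log2 Cy3 signal minus the 75th percentile of the same array, so that 0 is the level of a probe at that percentile, and differences are injured minus control on this log2 scale. Correlations between arrays over 18784 probes ran from 0.965 to 0.992. Injured replicate 3 correlated at 0.972, 0.99 and 0.992 with the controls and at 0.976 and 0.986 with the other injured arrays, and it stood nearest the controls in most of the results below. Control replicate 1 and injured replicate 1 each held genes that lay 2 log2 units beyond all other arrays: 37 lower and 63 higher on the former and 95 lower and 6 higher on the latter, and nearly all of them departed the same way in the Cy5 sample of that array. None of these genes passed the rules used below.

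Promoters of 6 genes are shown first, from gene lists that share regulators with known sites. They are 3 genes of cholesterol synthesis that were lower and 3 interferon-induced genes that were higher under the unadjusted rule given below. Within each list they have the largest differences among genes whose promoter held the letters searched. The marked sites were thus a condition of the choice and not a result. Each is 300 bases from RefSeq (build GRCm38.p6), from 250 bases before the start of the gene to 50 after it, written in the direction of the gene. Capitals mark the letters CCAAT, or the same letters on the other strand, in the first set. CCAAT is the letter core of the sites of the factor NF-Y, which is known to act with Srebf2. The windows are chr8:122443373-122443672, minus strand for Mvd, chr5:28071162-28071461, plus strand for Insig1 and chr8:64733529-64733828, minus strand for Msmo1.
Mvd: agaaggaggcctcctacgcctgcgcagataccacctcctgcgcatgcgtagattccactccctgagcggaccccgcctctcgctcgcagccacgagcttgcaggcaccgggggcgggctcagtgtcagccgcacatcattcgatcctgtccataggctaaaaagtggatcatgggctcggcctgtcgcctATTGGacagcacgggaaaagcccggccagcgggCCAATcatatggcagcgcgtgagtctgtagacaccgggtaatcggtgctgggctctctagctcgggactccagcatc
Insig1: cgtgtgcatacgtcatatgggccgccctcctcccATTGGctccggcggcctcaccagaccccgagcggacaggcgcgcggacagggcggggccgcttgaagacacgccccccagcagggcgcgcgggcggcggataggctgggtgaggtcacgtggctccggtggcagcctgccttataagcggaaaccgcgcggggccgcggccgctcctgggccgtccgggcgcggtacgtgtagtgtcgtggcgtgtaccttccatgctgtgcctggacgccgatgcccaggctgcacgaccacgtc
Msmo1: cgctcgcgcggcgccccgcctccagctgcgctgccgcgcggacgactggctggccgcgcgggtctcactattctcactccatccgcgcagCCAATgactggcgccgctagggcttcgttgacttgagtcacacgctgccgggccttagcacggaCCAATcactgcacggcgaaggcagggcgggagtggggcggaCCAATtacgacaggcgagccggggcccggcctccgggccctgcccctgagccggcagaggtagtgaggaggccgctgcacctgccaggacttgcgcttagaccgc
In the second set capitals mark the interferon-stimulated response element on either strand, searched as GAAA, any 2 bases and GAAA again. The windows are chr5:92348840-92349139, minus strand for Cxcl10, chr19:34640639-34640938, plus strand for Ifit1 and chr3:142620413-142620712, plus strand for Gbp2.
Cxcl10: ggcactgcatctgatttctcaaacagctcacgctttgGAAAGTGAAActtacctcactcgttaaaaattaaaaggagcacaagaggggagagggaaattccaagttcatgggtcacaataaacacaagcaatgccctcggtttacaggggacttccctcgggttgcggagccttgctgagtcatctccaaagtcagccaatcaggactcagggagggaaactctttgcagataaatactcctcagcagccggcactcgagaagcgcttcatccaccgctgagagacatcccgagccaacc
Ifit1: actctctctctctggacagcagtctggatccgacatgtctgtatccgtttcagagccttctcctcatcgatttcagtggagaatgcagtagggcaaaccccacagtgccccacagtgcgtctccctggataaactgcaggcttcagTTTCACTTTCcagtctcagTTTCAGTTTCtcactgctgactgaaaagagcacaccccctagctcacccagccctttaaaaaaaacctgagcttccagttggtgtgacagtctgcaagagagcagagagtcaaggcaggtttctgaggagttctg
Gbp2: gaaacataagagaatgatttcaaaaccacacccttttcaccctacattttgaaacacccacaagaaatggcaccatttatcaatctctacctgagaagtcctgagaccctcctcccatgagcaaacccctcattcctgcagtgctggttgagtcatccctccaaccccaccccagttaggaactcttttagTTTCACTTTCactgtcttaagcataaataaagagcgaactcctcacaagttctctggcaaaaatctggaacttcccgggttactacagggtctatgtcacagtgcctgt
Of the 25 cholesterol genes tested, 17 had a promoter in the table, and 16 of these held CCAAT on 1 strand or the other, in 80% of their 20 promoters. Over all 32851 promoters of the table the share was 37.4%. The letters of the interferon-stimulated response element were found in 16 of the 26 interferon-induced genes with a promoter, in 48.5% of their 33 promoters, where 3.44% of all promoters held it. A form of the sterol regulatory element, TCACNCCAC, was found in 1 of the 17 cholesterol genes, Hmgcs1, and in 1.24% of all promoters. The promoter of Cxcl10 also holds CCAAT, left in lower case here. These matches describe the letters of the windows, and no binding was measured.

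Among all 14537 genes tested, no gene passed limma's test with Benjamini-Hochberg adjustment at a fold of 1.5 or more (0 higher and 0 lower, 0%), and the lowest adjusted p was 0.116. At an unadjusted limma p under 0.05 and the same fold, 373 genes were higher in the injured pools (2.57% of genes tested) and 411 were lower (2.83%). This is called the unadjusted rule below. Its shares of all genes, 2.57% higher and 2.83% lower, are the background for every list count that follows. Without the fold, 1927 genes (13.3%) had an unadjusted p under 0.05. Levels of the 3 arrays of 1 group lay entirely above those of the other for 1184 genes higher in the injured pools (8.14%) and 1903 lower (13.1%). The median difference of the 373 was 0.86 and that of the 411 was -0.70. In 48 of the 373 the controls were not well above background on any array, and in 31 of the 411 the injured pools were not. Injured replicate 3 was the injured array nearest the controls in 283 of the 373 and in 310 of the 411. Without it, 685 genes were higher and 893 lower under the unadjusted rule. Nothing in the labels says which animals make up which pool, and the p-values measure the spread between these pools. Because a bulk pool was measured, fewer cells of a type and less RNA per cell cannot be told apart.

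**Figure D1:**
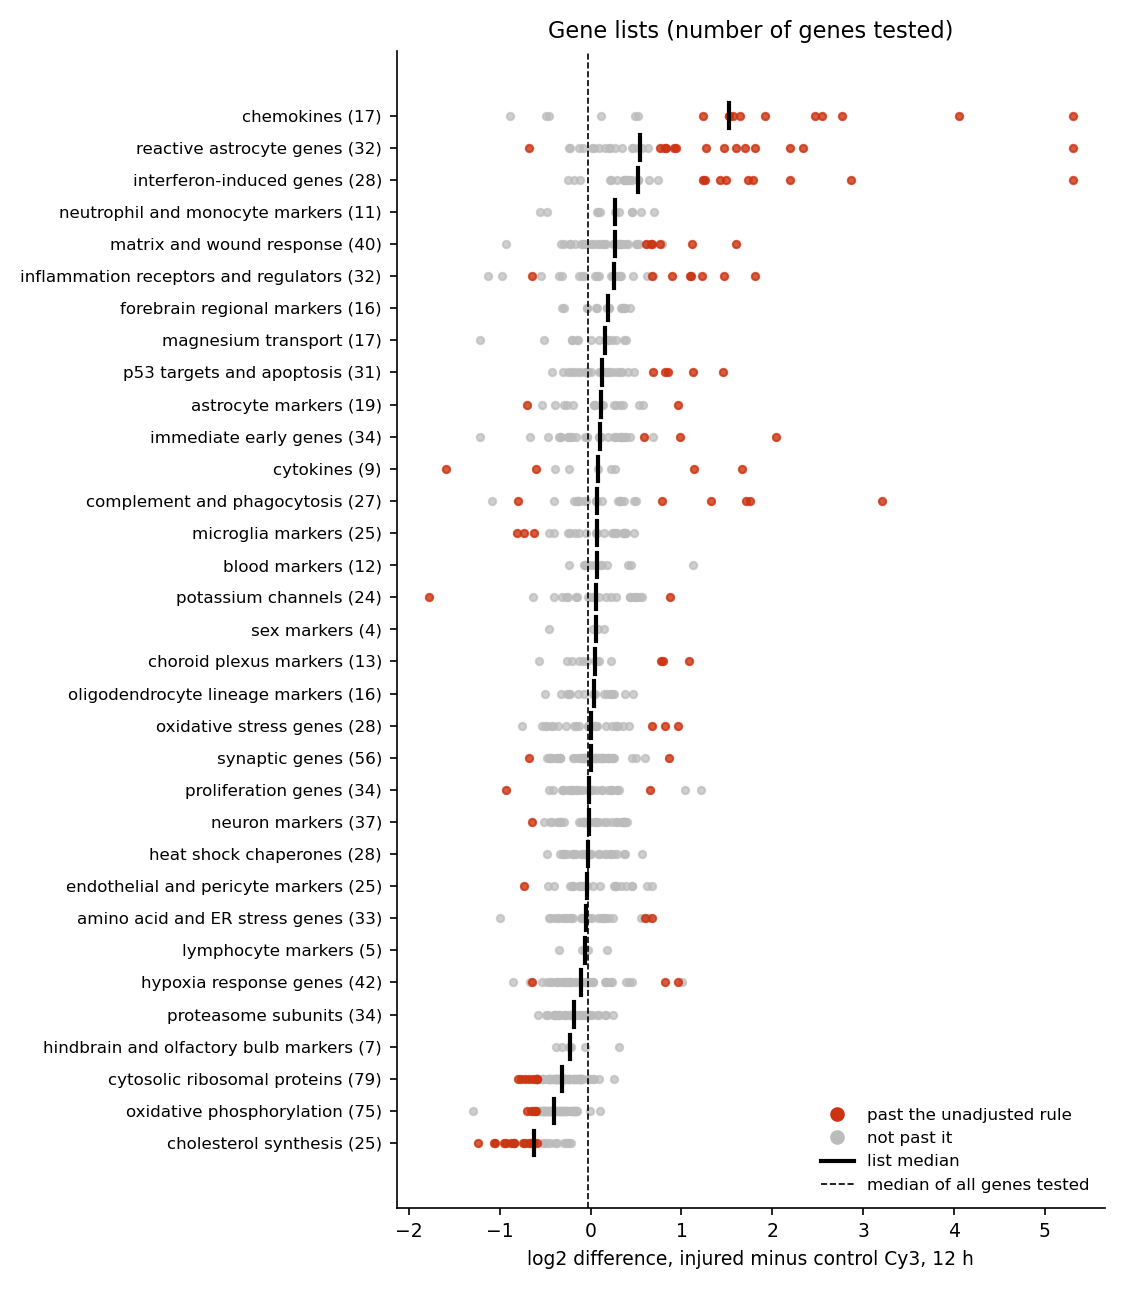
Difference between injured and control Cy3 levels (log2, x axis) of each gene tested in 33 gene lists (rows, with the number of genes tested). Red points passed the unadjusted rule, grey points did not, black bars are list medians and the dashed line is the median of all 14537 genes (-0.03). Chemokines lie furthest to the right with a median of 1.52, and all 25 cholesterol synthesis genes lie to the left of 0.

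Chemokines had the largest median difference of the 33 gene lists. Of 23 listed, 22 were on the array and 17 were tested. Under the unadjusted rule 11 were higher (64.7%) and 0 lower, and the list's median was 1.52 against -0.03 for all genes tested. Of the 17, 4 were tested only because the injured pools were above background, so they had to be higher. Among the 11 chemokines well above background on all 6 arrays, 7 passed the unadjusted rule and the median was again 1.52. With another background correction (normexp) and no dye normalization the list's median was 0.32, and for all genes 84 were higher and 235 lower. This normexp setting adds an offset of 50 to every signal before the log, which by itself draws the differences of dim probes toward 0. Members of the list that did not pass included Cxcl12 (-0.46), a chemokine made in the resting brain, and Cx3cl1 (0.12), which neurons make.

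Cxcl10, which draws activated T cells and is itself induced by interferons, had the largest positive difference of all genes tested. Its levels were -6.88, -6.07 and -4.73 in the controls and 0.20, 0.34 and -2.30 in the injured pools. The control probe was well above background on 1 of 3 arrays, the groups did not overlap, and the difference was 5.30 (SE 0.82, limma adjusted p = 0.289). Injured replicate 3 was the lowest of the injured arrays.

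Ccl4 and Ccl3, chemokines that microglia release, were both higher. Ccl4 lay at -4.36, -4.34 and -4.41 in the controls and at -0.08, 0.29 and -1.17 in the injured pools, a difference of 4.05 (SE 0.36, limma adjusted p = 0.116). Ccl3 lay at -3.21, -3.06 and -3.31 in the controls and at -0.18, -0.26 and -1.49 in the injured pools, a difference of 2.55 (SE 0.35, limma adjusted p = 0.269). The control arrays of both genes lay close to each other, and all injured arrays lay above them. Ccl2, the main chemokine for monocytes, was measured at -2.66, -2.62 and -3.12 in the controls and at -0.18, 0.78 and -1.59 in the injured pools (difference 2.47, SE 0.56, limma adjusted p = 0.352). Ccl11, which draws eosinophils, was not well above background on any control array and on 2 of 3 injured arrays. Its injured levels of -7.03, -3.68 and -2.57 overlapped with the control levels of -7.17, -6.45 and -7.97, and it was at least 1.65-fold higher (limma adjusted p = 0.369). The other chemokines past the rule were Ccl12 (1.91), Ccl7 (1.65), Ccl5 (1.57), Cxcl1 (1.52), Ccl9 (1.52) and Ccl6 (1.24), and their groups did not overlap. Cxcl1, the neutrophil chemokine, lay at -2.81, -1.91 and -4.21 in the injured pools, replicate 3 just above the highest control of -4.23.

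**Figure D2:**
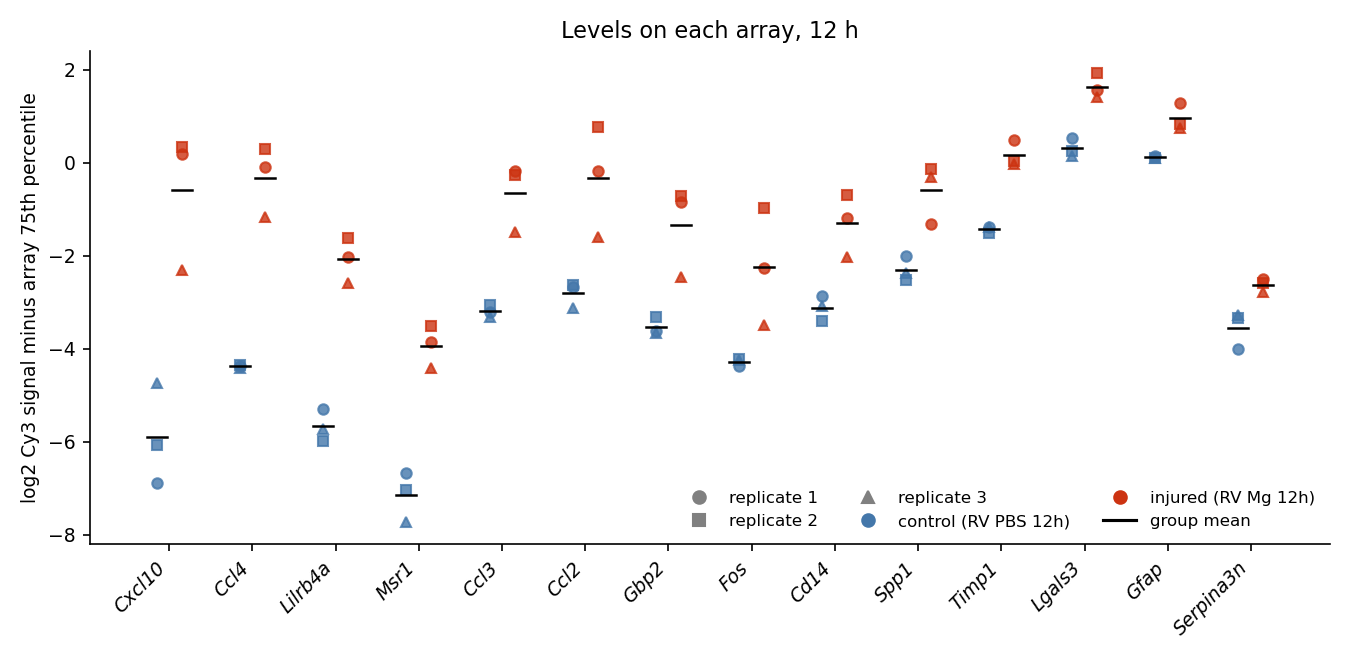
Levels of 14 genes (log2 Cy3 signal minus the array's 75th percentile, y axis) on the 3 control arrays (blue) and the 3 injured arrays (red), with the replicate as symbol and the group mean as a black line. The groups do not overlap in any of the genes shown. Injured replicate 3, the red triangle, is the lowest red symbol for Cxcl10, at -2.30, and for Ccl4, at -1.17.

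Interferon-induced genes answer a cytokine that cells release against viruses. Of 34 listed, 28 were tested, 3 of them through the injured pools alone. Of the 28, 9 were higher under the unadjusted rule and 0 lower, where 2.57% of all genes were higher, and 25 had a positive difference, with a median of 0.52. With normexp 6 were higher and the median was 0.192, and by the methods' t-test 5 were higher. Among the 20 well above background on all 6 arrays, 6 passed and the median was 0.45. One of the 9 is Cxcl10, which also stands in the chemokine and reactive astrocyte lists. Gbp2, a guanylate-binding protein that reactive astrocytes also make, lay at -3.61, -3.31 and -3.66 in the controls and at -0.85, -0.70 and -2.45 in the injured pools (difference 2.19, SE 0.45, limma adjusted p = 0.348). The promoter of Gbp2 is among those printed above.

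Ifit1, which binds viral RNA, was not well above background on any control array (-6.56, -6.95 and -7.54) and reached -3.71, -2.97 and -5.79 in the injured pools, where 2 of 3 arrays were above background. It was at least 2.00-fold higher (limma adjusted p = 0.352). Usp18, a brake on interferon signaling, differed by 1.78, from -4.62, -5.09 and -3.99 to -2.28, -2.08 and -3.99, so that its injured replicate 3 lay at the highest control. Ifit3 (1.73), the immunity-related GTPases Irgm1 (1.49) and Igtp (1.24), Gbp3 (1.43) and the ubiquitin-like Isg15 (1.26) completed the 9. Isg15 overlapped between the groups, with 0.43, -0.52 and -0.61 in the controls and 1.21, 1.66 and 0.20 in the injured pools. Members without a call included the sensor Ddx58 (-0.25) and the transcription factor Stat2 (-0.19), while Irf1 stood at 0.43. Injured replicates 1 and 2 lay a median of 0.83 and 0.78 above the control mean over the 28 genes, and injured replicate 3 lay 0.22 above it. Without injured replicate 3, 13 of the 28 passed the unadjusted rule.

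Of the cytokines best known from acute inflammation, most signals were too dim. Tnf had 1 probe that was well above background on 0 of 6 arrays, and Il6 had 1 probe above it on 1 of 6, so neither was tested. Il1b was not above background on any control array and lay at -4.81, -3.83 and -5.77 in the injured pools against -6.29, -6.33 and -6.78, at least 1.27-fold higher (limma adjusted p = 0.352). With normexp its difference turned negative. Csf1, a growth factor of microglia, was higher by 1.14, from -2.58, -3.11 and -2.94 to -1.41, -1.31 and -2.50, and its 3 probes differed by 0.44 to 1.94. Lower under the unadjusted rule were Il18, at -0.61, and Csf3, which was not well above background on any injured array and at least 1.53-fold lower (limma adjusted p = 0.352). In all, 9 of 22 cytokines were tested, 2 were higher and 2 lower, and their median was 0.08.

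Receptors and regulators of inflammation numbered 32 tested genes, with a median of 0.25. Under the unadjusted rule 7 were higher (21.9%) and 1, Tlr4, was lower (3.12%). Cd14, a co-receptor for bacterial products, lay at -2.85, -3.40 and -3.08 in the controls and -1.18, -0.69 and -2.02 in the injured pools (difference 1.81, SE 0.34, limma adjusted p = 0.348). Osmr, the oncostatin M receptor, differed by 1.47, Tnfrsf12a, the receptor of the cytokine Tweak, by 1.22, Il1r1, a receptor for interleukin 1, by 1.09, Il4ra by 0.90 and the feedback inhibitor Socs3 by 0.67. The toll-like receptor Tlr2 lay at -2.47, -3.03 and -3.07 in the controls and at -1.58, -1.45 and -2.22 in the injured pools. Nfkbiz, a regulator of NF-kB target genes, had a difference of -1.13 that did not pass.

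Genes of uptake, phagocyte activation and complement form 1 list, and Lilrb4a is described beside it. Lilrb4a, an inhibitory receptor of myeloid cells, was not well above background on any control array (-5.29, -5.97 and -5.71) and was above it on all 3 injured arrays (-2.02, -1.61 and -2.59), at least 8.45-fold higher (limma adjusted p = 0.116). Msr1, a scavenger receptor of macrophages, went from -6.67, -7.04 and -7.71 to -3.86, -3.52 and -4.41, at least 2.33-fold higher (limma adjusted p = 0.155). In both genes the 3 injured arrays lay above every control array.

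Spp1, or osteopontin, lay at -2.01, -2.51 and -2.36 in the controls and at -1.32, -0.13 and -0.30 in the injured pools (difference 1.71, SE 0.33, limma adjusted p = 0.348). Lgals3, a lectin of activated microglia, lay at 0.54, 0.25 and 0.14 and at 1.58, 1.93 and 1.42 (difference 1.33, SE 0.19, limma adjusted p = 0.269). For Spp1 it was injured replicate 1 that lay nearest the controls. Gpnmb, a glycoprotein of lipid-laden phagocytes, was above background on the 3 injured arrays and no control array, and at least 1.63-fold higher (limma adjusted p = 0.348). The complement and phagocytosis list had 4 genes tested through the injured pools alone and a median of 0.07. Of its 27 genes, 5 were higher (18.5%) and 1, C2 (-0.80), was lower (3.7%). The 5 were Msr1, Gpnmb, Spp1, Lgals3 and the complement component C4b (0.79). C4b and C2 were named after their values were seen.

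Genes of reactive astrocytes numbered 32 tested of 37. Under the unadjusted rule 13 were higher (40.6%) and 1, the sphingosine kinase Sphk1 (-0.68), was lower (3.12%). Their median was 0.55, and 27 had a positive difference. Among the 28 well above background on all 6 arrays, 10 were higher, 1 was lower and the median was 0.50, while 3 of the 32 were tested through the injured pools alone. Gfap, the intermediate filament that marks astrocytes, had control levels of 0.16, 0.12 and 0.12 and injured levels of 1.29, 0.84 and 0.75 (difference 0.83, SE 0.17, limma adjusted p = 0.348). All 3 of its probes tested were higher, by 0.83 to 1.03. Vim, a second filament protein, differed by 0.82 and Serpina3n, a secreted protease inhibitor, by 0.92. The other members past the rule that are not described elsewhere were S1pr3 (1.27), a receptor for sphingosine 1-phosphate, Emp1 (0.94), the hyaluronan receptor Cd44 (0.76) and Tgm1, which was not above background in the controls and at least 1.15-fold higher. Cd109, a surface protein that binds TGF-beta, was above background on 1 of 3 control arrays and differed by 2.34, with -5.45, -5.46 and -4.46 in the controls and -2.87, -2.48 and -3.01 in the injured pools (limma adjusted p = 0.269).

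Timp1, an inhibitor of matrix proteases, was higher on every injured array. Its levels were -1.38, -1.51 and -1.38 in the controls and 0.49, 0.04 and -0.01 in the injured pools, a difference of 1.60 (SE 0.17, limma adjusted p = 0.174). S100a4, a calcium-binding protein of migrating cells, differed by 1.11, from 0.81, 0.80 and 0.40 to 1.54, 1.86 and 1.94. Of the 40 matrix and wound response genes tested, 3 of them through the injured pools alone, 6 were higher (15%) and 0 lower under the unadjusted rule. The median was 0.27. Without injured replicate 2 the median was 0.0763, with normexp it was 0.0747 with 2 higher, and without injured replicate 3 the count was 15. Tenascin C, encoded by Tnc, had a difference of -0.93 and did not pass.

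Genes of cholesterol synthesis were lower throughout. All 25 genes of the list were tested, all through both groups, and all 25 had a negative difference, with a median of -0.62 against -0.03 for all genes. Under the unadjusted rule 14 were lower and 0 higher (all genes: 2.83% lower). In 19 of the 25 the groups did not overlap, where 13.1% of all genes were lower without overlap. Genes of 1 pathway share their regulation and are not independent of each other.

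Mvd, which makes isopentenyl pyrophosphate, lay at 2.09, 1.78 and 1.78 in the controls and at 0.56, 0.18 and 1.17 in the injured pools (difference -1.24, SE 0.26, limma adjusted p = 0.348). Insig1, a sterol sensor that retains the Srebf2 machinery in the endoplasmic reticulum and is itself a target of it, lay at -0.94, -1.07 and -1.19 and at -2.22, -1.93 and -2.20 (difference -1.05, SE 0.15, limma adjusted p = 0.269). Msmo1, a sterol demethylase, lay at 4.90, 4.95 and 5.03 and at 3.88, 3.94 and 4.21 (difference -0.95, SE 0.14, limma adjusted p = 0.284). For Insig1 and Msmo1 the injured arrays lay close to each other, replicate 3 included.

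Among the other genes past the rule were Fdft1, Nsdhl, Mvk, Idi1, Tm7sf2, Sqle, Acat2, Ebp, Stard4 and Fdps, with differences of -0.93 (Fdft1) to -0.59 (Fdps), and they were named after their values were seen. Srebf2 itself differed by -0.22, with a second probe at 0.75, and did not pass, nor did Hmgcs1 (-0.52). Over the 25 genes the 3 injured arrays lay a median of -0.59, -0.78 and -0.52 from the control mean, and the 3 control arrays -0.06, 0.00 and 0.06 from it. The list's median lay between -0.72 and -0.47 and its count of lower genes between 11 and 15 over all alternatives run. With the 4 controls of the Mg 12h arrays added, 24 of the 25 were lower.

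**Figure D3:**
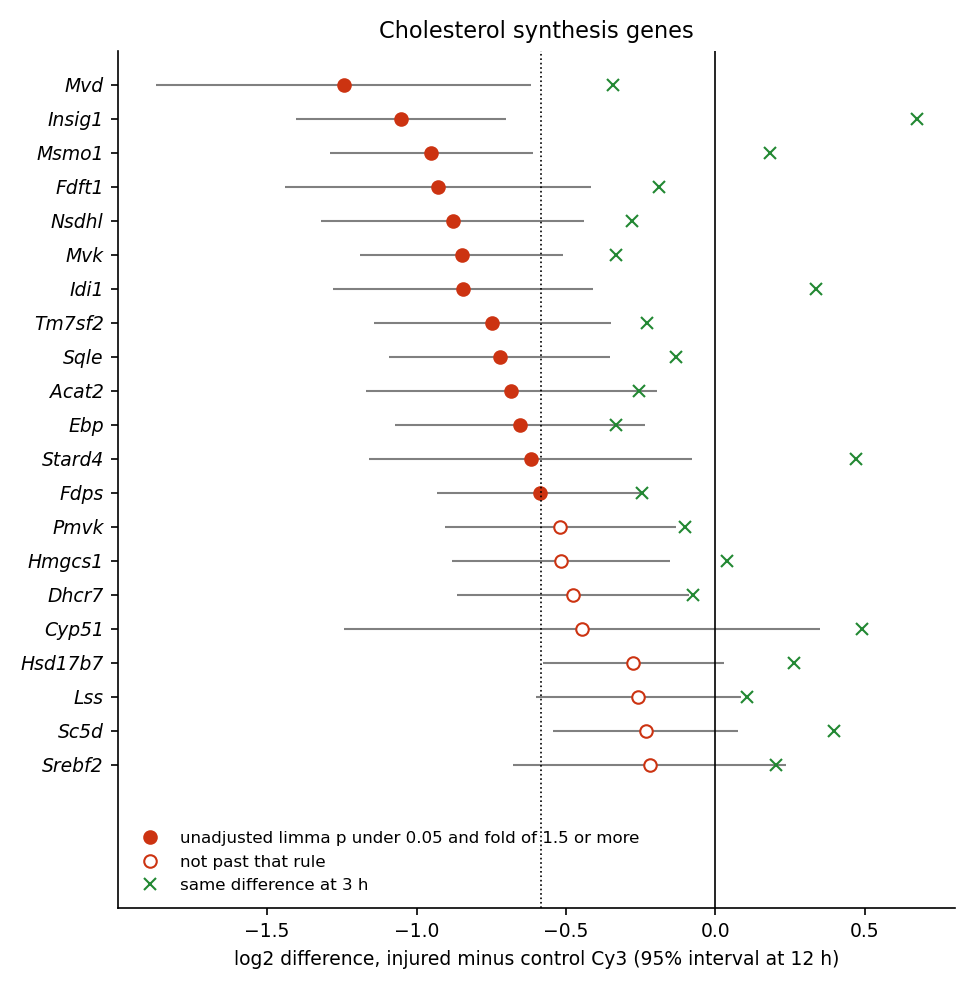
Difference between injured and control Cy3 levels (log2, x axis) of 21 cholesterol synthesis genes at 12 h, with 95% intervals from limma. Filled points passed the unadjusted rule and open points did not, green crosses give the same difference at 3 h, and the dotted line marks a fold of 1.5. All 21 points lie below 0 at 12 h, from -1.24 for Mvd to -0.22 for Srebf2, while the 3 h crosses lie on both sides of 0, with Insig1 at 0.67.

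Ribosomal, mitochondrial and proteasome genes make up the housekeeping lists. Of 79 cytosolic ribosomal protein genes, 75 had a negative difference, the median was -0.31, and 8 were lower under the unadjusted rule, Rps24 (-0.77), Rpl10a (-0.73) and Rpl9 (-0.67) among them. With quantile normalization in place of the 75th percentile this median was 0.02 and 0 genes passed. With median centring it was -0.302 with 75 genes negative, and with normexp -0.222 with 73 negative. The cause of this spread was not tested. The 3 injured arrays stood a median of -0.45, -0.40 and -0.08 from the control mean. Other probes of Rps24 disagreed, with differences up to 0.15. Of 75 genes of oxidative phosphorylation, 74 had a negative difference, with a median of -0.40 and 5 lower under the rule: Atp5e, Ndufb4, Ndufb9, Uqcr11 and Cox4i1, at -0.71 to -0.60, the last 2 named after their values were seen. Under quantile normalization the median was -0.13 with 0 past the rule. Proteasome subunits (34 tested) had a median of -0.19 and none past the rule.

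Immediate early genes are transcription factors and signals switched on without new protein synthesis. Among 34 immediate early genes, 3 were higher (8.82%) under the unadjusted rule and 0 lower, and the median was 0.10. Fos lay at -4.36, -4.22 and -4.23 in the controls and at -2.25, -0.97 and -3.48 in the injured pools (difference 2.04, SE 0.57, limma adjusted p = 0.352). Atf3 differed by 0.98 and Ier3 by 0.59, the latter named after its value was seen. Egr1 (0.37) and Arc (-0.34), plasticity genes of neurons, did not pass.

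Hypoxia response genes (42 tested) had 2 higher (4.76%), 1 lower (2.38%) and a median of -0.10, beside 2.57% higher and 2.83% lower of all genes. The 2 higher were the metallothioneins Mt1 (0.82) and Mt2 (0.96), zinc-binding proteins that many stresses induce, and the lower one was the mitophagy gene Bnip3 (-0.64), named after its value was seen. Vegfa, the angiogenic factor, stood at -0.16 and Adm, adrenomedullin, at 0.03. Among 28 heat shock chaperones none passed, with Hspb1 at 0.57, and Hspa1b had 0 probes with a name here. Of 31 p53 targets and apoptosis genes, 5 were higher (16.1%) and 0 lower. The 5 were the death receptor Fas (1.46), the stress hormone Gdf15 (1.13), the death effector Pmaip1 (0.86), the inflammatory caspase Casp4 (0.81) and Zmat3 (0.68). The groups overlapped for Gdf15 and Casp4. The count of 5 was 0 with normexp, 1 without control replicate 1 and 2 without control replicate 3, injured replicate 1 or injured replicate 2. Cdkn1a, the main cell cycle target of p53, stood at 0.09 by its brightest probe and at 2.39 by the other. Of 28 oxidative stress genes, 3 were higher (10.7%) and 0 lower, with a median of 0.00, and by the methods' t-test 0 were higher. In that list the antioxidant gene Hmox1 stood at 0.42 and the ferritin chain Fth1 at -0.76, and neither passed.

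Cell type markers were listed by type. With the 4 controls of the Mg 12h arrays added, the median of astrocyte markers was 0.6 with 8 of 19 higher, that of choroid plexus markers 0.683 and that of microglia markers -0.349. In the comparison of 3 with 3 arrays, microglia markers (25 tested) are genes of resting microglia and of brain macrophages. Under the unadjusted rule 0 were higher and 3 lower (12%): Tmem119, P2ry12 and P2ry13. The list as a whole did not go down, since 15 had a positive difference and 10 a negative one, with a median of 0.07. Groups did not overlap for 5 higher and 4 lower members. Tmem119 lay at -1.14, -1.34 and -1.49 in the controls and at -2.19, -2.23 and -1.97 in the injured pools (difference -0.81, SE 0.15, limma adjusted p = 0.348). The purinergic receptor P2ry12 differed by -0.73 and P2ry13 by -0.62. Pan-microglial Aif1 stood at -0.45 and the integrin Itgam at 0.47, without passing.

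For blood cells, 11 of 25 neutrophil and monocyte markers and 5 of 17 lymphocyte markers were tested and none passed, with the neutrophil gene S100a8 at 0.46 and the T cell gene Cd3e at -0.06. Endothelial and pericyte markers had 1 lower (4%, beside 2.83% of all genes), the transporter Slc38a5 (-0.74). The tight junction gene Cldn5 stood at -0.23. Astrocyte identity genes (19 tested) had 1 higher, Gli3 (0.96), and 1 lower, the lipid carrier Fabp7 of radial glia (-0.70), with a median of 0.11. The oligodendrocyte lineage had none past the rule (Pdgfra 0.37, and Mbp 0.24 with other probes down to -0.80). Choroid plexus markers had 3 of 13 higher, the water channel Aqp1 (1.08), Slc4a5 (0.80, at least 1.42-fold) and Kl (0.78, above background on 1 control and 2 injured arrays), while Ttr, the most specific product of that epithelium, stood at 0.09 and the list's median was 0.04. Of the 13, 2 were tested through the injured pools alone. Among the 11 well above background on all 6 arrays, 1 was higher and the median was -0.0376. With normexp 1 of the 13 was higher, the list's median was -0.113, and Slc4a5 (-0.123) and Kl (-0.113) turned negative.

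Neuronal genes were close to the median of all genes. Of 56 synaptic genes, 1 was higher, the NMDA receptor subunit Grin2b (0.86), and 1 lower, the active zone protein Pclo (-0.67). Each is 1.79% of the list, beside 2.57% higher and 2.83% lower of all genes, and the median was 0.00. The probes of Pclo disagreed, from -0.67 to 0.19. Grin1, the obligate NMDA receptor subunit, lay at -0.15. Among 37 neuron markers the interneuron gene Pvalb was lower (-0.64), none was higher, Map2 stood at 0.05, and the median was -0.02. Forebrain regional markers (16 tested) had none past the rule and a median of 0.19, and of 20 markers of hindbrain and olfactory bulb 7 were tested, with none past it. For the regulators that the study discusses, Rictor differed by 0.42, Sirt1 by 0.13, Fmr1 by 0.06 and Mknk1 by -0.43, and none passed.

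Several of the largest differences belonged to none of these groups and came from dim probes. Il5, a T cell cytokine, was above background on all injured arrays (-3.79, -4.86 and -3.24) and no control array (-7.09, -7.30 and -6.10), at least 2.28-fold higher (limma adjusted p = 0.301). The HI pools in Cy5 of the RV PBS 12h arrays did not share this, with log2 ratios to their control of 0.70, 0.15 and -0.89. Saa3, an acute phase protein, was at least 2.62-fold higher, Krtdap, a keratinocyte protein, at least 2.38-fold, the predicted gene Gm5544 at least 2.63-fold and Trim34a at least 2.42-fold, with limma adjusted p-values of 0.301 to 0.348. All 4 were below background on every control array.

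At the other end, Itln1, a lectin, was lower by 2.29 on the log2 scale, with -2.55, -4.17 and -2.37 in the controls and -4.76, -5.91 and -5.27 in the injured pools, of which 1 was above background. Gm5771, Kdf1, Mill2 and V1ra8 were likewise above background on 1 injured array each, with differences of -1.70 to -1.54, and Catsperg2 (-1.40) on 2. Glt1d1 was above it on none and at least 1.81-fold lower (limma adjusted p = 0.279). Measured on all 6 arrays were Izumo4 (-1.42), Gm5741 (-1.29), Gm5820 (-1.27) and Tmem40 (-1.25). Tmem40, a membrane protein, lay at -0.51, -0.75 and -1.06 in the controls and at -1.94, -2.22 and -1.92 in the injured pools (SE 0.19, limma adjusted p = 0.281).

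The difference at 12 h was then tested against the same difference at 3 h, in 12 Cy3 arrays of 4 groups, 3 for each time and condition. The 3 h arrays are titled RV Mg 3h and RV PBS 3h. RV Mg 3h shares the title wording of RV Mg 12h, so whether its injured Cy3 pools received MgSO4 was not settled either. The 12 arrays lay on 3 slides, with replicates 1 and 2 of 3 h on their own slide and replicate 3 beside replicate 1 of 12 h. Slide and time thus cannot be fully told apart. Nr4a1, a nuclear receptor of the immediate early class, was the single gene past the adjusted test (0.00688% of 14537). At 3 h it lay at 0.89, 0.95 and 0.71 in the controls and at 3.72, 3.76 and 3.25 in the injured pools, and at 12 h at 0.76, 0.60 and 0.64 and at 0.51, 1.06 and 0.31. The difference fell by 2.77 (SE 0.28, limma adjusted p = 0.0196) between the times, and the limma adjusted p was 0.032 with the slide as a block. The adjusted p was 0.102 without injured 12 h replicate 1, 0.0579 without injured 3 h replicate 1, and 0.0722, 0.089 and 0.0561 without control 3 h replicates 1, 2 and 3 in turn. Immediate early genes as a list had 23 of 34 lower at 12 h under the unadjusted rule and 0 higher, with a median contrast of -1.45, where 2.15% of all genes were lower and 2.23% higher. Fos differed by 5.38 at 3 h and 2.04 at 12 h, and Fosb by 3.56 and 0.26.

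Interferon-induced and cholesterol genes differed at 12 h more than at 3 h. Of the 28 interferon-induced genes, 9 had a larger difference at 12 h under the unadjusted rule and 0 a smaller one, with a median of -0.01 at 3 h and 0.52 at 12 h. Gbp2 differed by 0.13 at 3 h and 2.19 at 12 h. Cholesterol synthesis had a median of 0.04 at 3 h and -0.62 at 12 h, with 12 of 25 lower at 12 h and 0 higher in the contrast, and Insig1 went from 0.67 at 3 h to -1.05. These counts ran from 5 to 14 for the interferon list and from 9 to 15 for cholesterol synthesis over all alternatives run.

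Fewer chemokines had a changed difference under the unadjusted rule, with 2 of 17 larger at 12 h and none smaller. Their list median was nonetheless 0.63 at 3 h and 1.52 at 12 h. The median contrast per gene was 0.157, or -0.0636 with normexp, and Ccl4 stood at 4.19 and 4.05. Of the reactive astrocyte genes 7 of 32 were larger at 12 h, Cd109 among them (0.26 and 2.34). Ifit1, not well above background on every injured array at 12 h, had a contrast of 3.14, or 0.274 with normexp. With other large contrasts under the unadjusted rule, Lilrb4a (1.22 and 3.59), Msr1 (0.59 and 3.21), Krtdap (0.28 and 2.82) and Trim34a (-0.44 and 2.23) had larger differences at 12 h. All 4 were above background on 0 control arrays at 12 h, so these differences are not exact, and with normexp their contrasts were 0.617, 0.201, 0.197 and 0.245 in that order. Msr1 and Krtdap did not pass the background filter in either group at 3 h, so their 3 h differences are not measured changes. Dsc2 (1.47 and -1.97) and Itln1 (0.38 and -2.29) had lower ones, and Dsc2 rested on a dim probe with overlapping groups at 12 h.

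**Figure D4:**
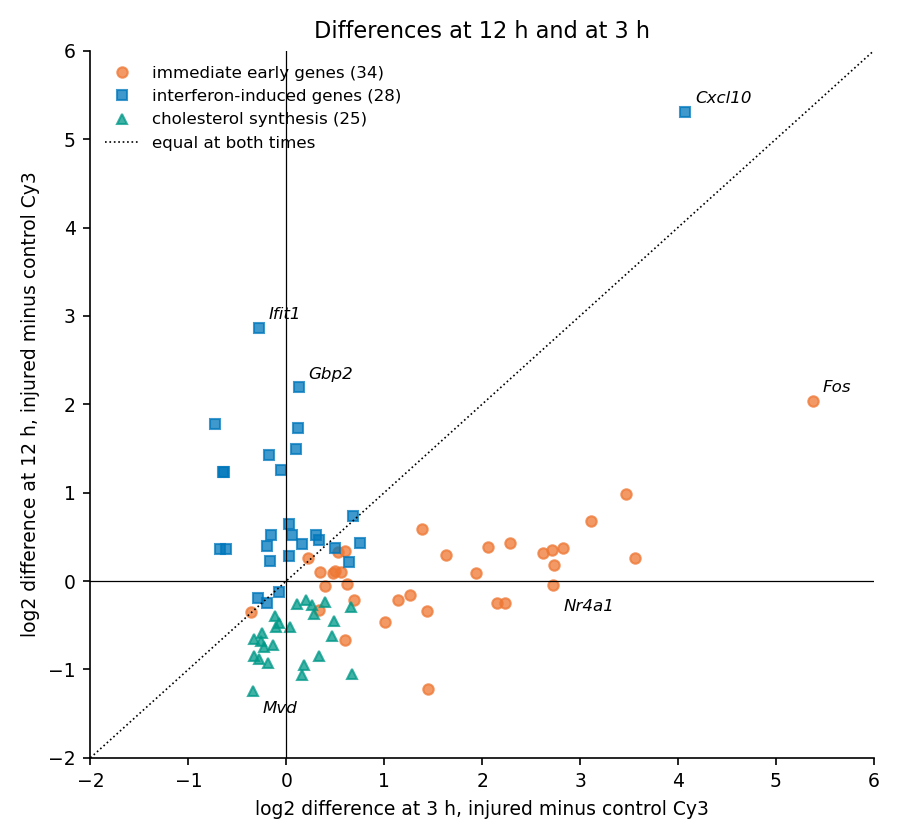
Difference between injured and control Cy3 levels (log2) at 3 h (x axis) and at 12 h (y axis) for immediate early genes (orange circles, 34), interferon-induced genes (blue squares, 28) and cholesterol synthesis genes (green triangles, 25), with the dotted line where both are equal. Immediate early genes spread to the right, up to Fos at 5.38, interferon-induced genes spread upward, and cholesterol genes lie below 0 on the y axis.

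The Cy5 samples of the same arrays give levels measured apart from the Cy3 injured pools, although the ratio on the RV PBS 12h arrays uses the same Cy3 controls. That ratio (HI over control) had a median of 1.90 for chemokines, 0.58 for interferon-induced genes, 0.74 for reactive astrocyte genes and -0.45 for cholesterol synthesis, beside 1.52, 0.52, 0.55 and -0.62 for the Cy3 comparison. Ribosomal proteins stood at 0.04 in the ratio and -0.31 in the comparison. Within the RV Mg 12h arrays the Cy5 over Cy3 ratio, between both injured pools of an array, had medians of 0.18, -0.07, 0.08 and 0.01 for the same 4 lists. On the Mg 12h arrays, naive mice given MgSO4 over controls, the medians were -0.06, -0.13, -0.10 and 0.02. Per array, the median chemokine level stood 1.52, 1.90 and 1.09 above the Cy3 control mean in the injured Cy3 pools and 1.39, 2.16 and 2.17 above it in the HI pools in Cy5. In the naive pools given MgSO4, in Cy5 of the 4 Mg 12h arrays, it stood 0.73, 0.29, 0.29 and 0.27 above that mean. The Cy3 controls of the same 4 arrays lay at 0.54, -0.09, 0.77 and 0.49 from it. For cholesterol synthesis the injured Cy3 pools lay at -0.59, -0.78 and -0.52, the HI pools in Cy5 at -0.48, -0.51 and -0.48, and the naive pools given MgSO4 at -0.10, -0.09, 0.12 and 0.16. Levels of the 2 channels were normalized together on each array, and the Mg 12h arrays lay on other slides. No test was made between these sets.

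**Figure D5:**
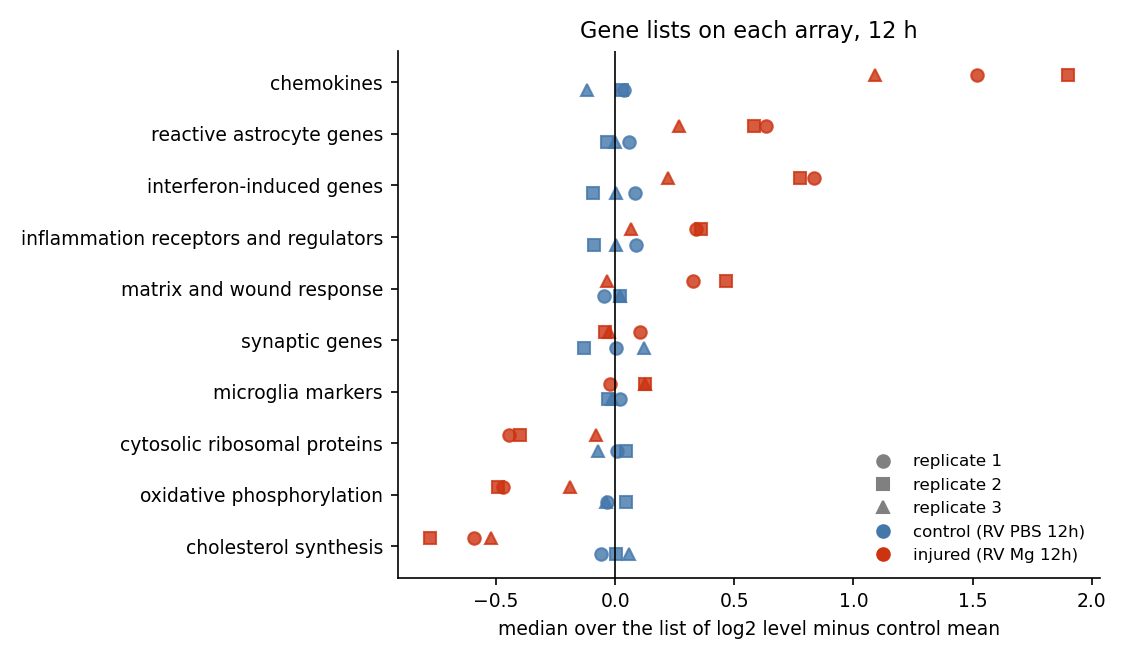
Median over the genes of a list of the level minus the control mean (log2, x axis) for 10 lists, on each of the 3 control arrays (blue) and 3 injured arrays (red), with the replicate as symbol. For chemokines the injured arrays lie at 1.52, 1.90 and 1.09 and for cholesterol synthesis at -0.59, -0.78 and -0.52, while injured replicate 3 lies near the controls for ribosomal proteins, at -0.08.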

How the data were processed

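Total RNA was hybridized on two-color Agilent 4x44K mouse arrays and read with Agilent Feature Extraction 10.5.1.1, as the submitters' processing notes name it. The deposited scanner files hold, per spot, a background-subtracted intensity (gProcessedSignal for Cy3 and rProcessedSignal for Cy5) that per the file headers was dye-normalized by LOWESS against the other channel of the array, so each Cy3 value depends in part on its Cy5 partner. No depth exists for arrays, and the number of arrays limits the precision.

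From the deposited intensity, log2 values were taken after outlier-marked spots were left out, and each array's 75th percentile was subtracted. Spots of a probe were averaged. Of 39429 probes, 27427 (69.6%) were given 1 symbol through their accession in a RefSeq table (GRCm38.p6), and 930 uncharacterized Rik symbols were left out. Probes well above background on at least 2 of the 3 arrays of either group were tested (18807 probes of 14537 genes) with limma 3.58.1 in R 4.3.3, with Benjamini-Hochberg adjustment over all probes, at a fold of 1.5 and p of 0.05. A gene is given by its brightest probe. In 3585 genes several probes were tested, and 1 gene had probes past the unadjusted rule in both directions. Of the genes, 433 were tested through the injured group alone and 205 through the control group alone. "At least" folds set the mean of the brighter group against, per array, the higher of the dim probe's signal and the lowest signal well above background. They hold for the settings used only. Over the alternatives run, the lowest log2 difference was 0.14 for Trim34a and 0.19 for Krtdap. An exact permutation test of 3 against 3 arrays cannot go below p = 0.1, so none was used. The fits were tested on simulated data.

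The comparison and the 33 gene lists were chosen with earlier results of these data known. Named genes are, first, the 12 largest differences in each direction past the unadjusted rule. Their groups did not overlap, and the larger group was well above background on its 3 arrays. Also named are up to 4 members of each list with the largest difference and the members that define a list. The 5 largest contrasts with 3 h in each direction, under the same conditions in that contrast, are named too. List members named beyond these were chosen after their values were seen: in particular Cxcl12, Cx3cl1, Ccl5, Ccl6, Ccl7, Ccl9, Ccl12, Cxcl1, Ifit3, Isg15, Gbp3, Igtp, Irgm1, Ddx58, Stat2, Irf1, Tlr2, Tlr4, Il1r1, Il4ra, Socs3, S1pr3, Emp1, Cd44, Tgm1, Egr1, Arc, Zmat3, Hmgcs1 and Srebf2. Some list members are not reported here by name, and the counts and medians of their lists include them. Control samples of the Mg 12h arrays were used as an alternative: 4366 of the genes tested (30%) differed between those 4 controls and the 3 used here at an adjusted p under 0.05 and the same fold. The other arrays of the series were not used here.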

Additional observations from a re-analysis of the deposited data

Results flagged for a closer look

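Nr4a1, an immediate early gene, differed between injured and control pools at 3 h and not in the same way at 12 h. The difference at 12 h minus that at 3 h was -2.77 on the log2 scale (SE 0.28, limma adjusted p = 0.0196 over 12 arrays), with 2.73 at 3 h and -0.04 at 12 h. Over the alternatives run, its adjusted p ran from 0.00185 (normexp) to 0.102. It was above 0.05 without injured 12 h replicate 1 (0.102), control 3 h replicate 1 (0.0722), control 3 h replicate 2 (0.089), control 3 h replicate 3 (0.0561) or injured 3 h replicate 1 (0.0579).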

How the results depend on the processing

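At an adjusted p the count of genes higher was 0 with the settings used and 10 in 1 fit over the 12 Cy3 arrays of both times, 3 with array weights, 5 with the 4 Cy3 controls of the Mg 12h arrays added, 2 with quantile normalization and 1 (Ccl4) over genes well above background on all 6 arrays. Leaving out 1 array gave 0 to 5, with the 5 (Serpina3f, Ccl3, Ccl4, Gbp2 and Lilrb4a) without injured replicate 3. The count lower was 5 in the 12-array fit and 0 to 1 with 1 array left out, the 1 (Cpvl) without control replicate 3. Under the unadjusted rule, genes higher and lower numbered 692 and 744 with array weights, 1556 and 1827 with the added controls, 84 and 235 with normexp and no dye normalization, and 197 and 259 by the methods' t-test, which made 0 calls after Benjamini-Hochberg adjustment and the fold. With 1 array left out they ran from 245 to 685 and from 234 to 893. The fewest higher came without injured replicate 1 and the fewest lower without injured replicate 2, and the most of both without injured replicate 3.

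Arrays with the same replicate number shared a slide and had residual correlations of 0.199, -0.111 and 0.221. So few values cannot settle whether the numbers pair the arrays. With the replicate number as a block, 388 genes were higher and 509 lower under the unadjusted rule, with 0 at an adjusted p in either direction, and the contrast of 12 h with 3 h gave 1 gene at an adjusted p and 732 without adjustment. With the slide as a block, chosen after seeing the data, 414 were higher and 513 lower, and on the slide of replicates 2 and 3 alone 345 and 337.

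Between 12 h and 3 h, 1 gene passed at an adjusted p, 8 with normexp, 2 with the slide as a block and 0 to 10 with 1 array left out, the 10 without injured 12 h replicate 3. The count without adjustment was 636, with 247 under normexp and 497 to 1190 with 1 array left out, the most again without injured 12 h replicate 3. The median over all genes tested was -0.03 with the settings used, -0.0853 with normexp and 0.0111 with quantile normalization.

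The chemokine median of 1.52 was 0.923 with the added controls, 0.32 with normexp, 0.886 with no filter (over the 22 on the array, and 1.52 over the 17 tested) and 1.24 to 1.73 with 1 array left out. The cytokine median of 0.08 was 0.369 with the added controls, -0.0243 with normexp (0 higher and 1 lower) and 0.00986 to 0.116 with 1 array left out. The reactive astrocyte median was 0.212 with normexp and 0.365 to 0.695 with 1 array left out. The synaptic median was 0.139 with the added controls and -0.0358 to 0.0649 with 1 array left out. The ribosomal median was -0.69 with the added controls, 0.0203 with quantile normalization and -0.456 to -0.231 with 1 array left out. The oxidative phosphorylation median was -0.615, -0.131 and -0.486 to -0.339 in the same order. The cause of these shifts was not tested. Named genes were chosen in part for a large difference, and most alternatives refit the same arrays. A kept sign was thus largely given in advance. Of the 160 named genes, 127 had the same sign under all alternatives run. Of the 78 past the unadjusted rule, 73 did. The other 5 turned with normexp: Il1b (-0.0243), Kl (-0.113), Slc4a5 (-0.123), Slc7a11 (-0.0857) and Tyms (-0.0563). Levels near background limit these comparisons, and the normexp offset of 50 draws differences of dim probes toward 0.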

Other observations

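Genes of magnesium transport (17 tested) had none past the unadjusted rule and a median difference of 0.16, with the carrier Slc41a1 at 0.39 and the channel kinase Trpm7 at 0.19. Among 24 potassium channel genes with a median of 0.06, Kcnh7 was not well above background on any injured array and was at least 1.12-fold lower (limma adjusted p = 0.348). Among 34 proliferation genes, thymidylate synthase Tyms was higher (0.65) and thymidine kinase Tk1 lower (-0.93), while Mki67, a marker of dividing cells, stood at 0.22, and the median was -0.02. Red cell markers (12 tested) had none past the rule, with Hbb-bs at -0.24 and the heme enzyme Alas2 at 0.03. Amino acid and ER stress genes (33 tested) had Slc7a11 (0.68), a cystine carrier, and Sel1l (0.60) higher and none lower, with a median of -0.05. Mki67, Trpm7, Alas2 and Sel1l were named after their values were seen.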
